A study of Mus musculus with 8 samples.

Results

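Cystatins, lysosomal cathepsins and legumain were followed in microglia (macrophages that live in brain tissue) from mice with and without multifunctional protein-2 (MFP2), an enzyme of peroxisomal beta-oxidation encoded by Hsd17b4. The set holds 10 genes, chosen by symbol for their place in this protease system, of 19938 genes measured: the cystatins Cst7 and Cst3, the cysteine cathepsins Ctsb, Ctsc, Ctsh, Ctsl, Ctss and Ctsz, the aspartic cathepsin Ctsd, and the asparaginyl endopeptidase Lgmn. Each is represented by 1 probe set of the array, annotated to that gene alone, so all 10 were measured and none was lost to a filter. The choice of genes was made with earlier results of these data known. The comparison was 4 arrays from MFP2 knockout mice against 4 arrays from control mice with a wild-type genotype, and every mouse in both groups was a Swiss Webster animal, labelled female, aged 17 weeks. Microglia were sorted from whole perfused brains as cells with high CD11b and intermediate CD45. The labels give no driver or deleted region for the knockout and do not say whether an array holds 1 animal or several, so the spread behind every p-value is that between these samples and may be technical. Expression is given as log2 values made with RMA by the authors, on a scale that ran from 2.04 to 13.99 in these arrays, and a difference of 1 on it is a doubling.

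Cathepsins are proteases of the endosome and lysosome that are made as inactive precursors and become active after the propeptide is cut off. Legumain trims several of them, and cystatins are small proteins that sit in the active-site cleft of papain-type cysteine cathepsins and block them. Microglia are rich in these enzymes, which degrade engulfed material and process antigens, and Cst7 is widely used as a marker of microglia near damaged or degenerating tissue.

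The promoters of 4 of these genes are shown because they are the cystatin pair that behaved differently here, a cathepsin that was higher in knockouts and a cathepsin that did not pass the test. Each window is the 250 bases before the annotated start, from RefSeq on the GRCm38.p6 build, written 5′ to 3′ on the strand of the gene, with capitals marking the E-box CACGTG, the core recognised by lysosomal gene regulators of the MiT/TFE family.
Cst7 promoter, chr2:150570165-150570414, plus strand: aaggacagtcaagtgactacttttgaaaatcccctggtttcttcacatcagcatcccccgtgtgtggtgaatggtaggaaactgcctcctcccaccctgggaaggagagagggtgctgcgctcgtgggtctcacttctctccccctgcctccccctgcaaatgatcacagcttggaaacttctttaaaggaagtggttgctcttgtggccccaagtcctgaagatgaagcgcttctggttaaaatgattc
Cst3 promoter, chr2:148875513-148875762, minus strand: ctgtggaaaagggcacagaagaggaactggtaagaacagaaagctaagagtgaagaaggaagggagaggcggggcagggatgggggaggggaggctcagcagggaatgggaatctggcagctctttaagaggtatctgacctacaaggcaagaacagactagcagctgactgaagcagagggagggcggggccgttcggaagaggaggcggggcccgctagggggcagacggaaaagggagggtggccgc
Ctsz promoter, chr2:174439040-174439289, minus strand: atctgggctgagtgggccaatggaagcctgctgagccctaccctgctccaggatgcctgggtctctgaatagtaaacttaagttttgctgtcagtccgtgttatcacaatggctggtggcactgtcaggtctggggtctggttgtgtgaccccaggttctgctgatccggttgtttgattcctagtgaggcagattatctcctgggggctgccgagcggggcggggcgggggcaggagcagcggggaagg
Ctsd promoter, chr7:142387828-142388077, minus strand: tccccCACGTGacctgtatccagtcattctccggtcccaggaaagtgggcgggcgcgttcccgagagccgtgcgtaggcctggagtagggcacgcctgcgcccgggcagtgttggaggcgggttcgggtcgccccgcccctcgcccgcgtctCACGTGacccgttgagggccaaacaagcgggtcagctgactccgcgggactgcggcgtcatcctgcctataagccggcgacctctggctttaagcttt
The search covered both strands and the motifs CACGTG, GAGGAAGT (a PU.1-type site) and TGAGTCA (AP-1), and the NF-kB consensus. CACGTG occurred in 6.02% of all 32851 windows of this length, GAGGAAGT in 2.44%, TGAGTCA in 4.46% and the NF-kB consensus in 0.14%. Ctsd held CACGTG at 2 places, ending 240 and 93 bases before the start, while the windows of Cst7, Cst3 and Ctsz held none of the 4 motifs. Windows were matched for 8 of the 10 genes (Ctsb and Ctsh had none). A window of Ctsl and 1 of the 2 windows of Lgmn also held CACGTG, but both lie inside the annotated gene and are not shown. Ctsc held GAGGAAGT, on the strand opposite to the gene. The GC content of the window was 51.6% for Cst7, 59.6% for Cst3, 58.8% for Ctsz and 67.2% for Ctsd, against a median of 52.4% over all windows. Matches are of exact letters only, so sites that vary from these strings were not counted, and binding was not measured.

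Hsd17b4 was lower in every knockout array, at 4.76 to 7.20, than in every control array, at 7.82 to 9.09 (change -2.88 ± 0.44 (SE), limma adjusted p = 0.00158). Knockout 2 stood at 7.20, near control 4 at 7.82, and the other knockout arrays at 4.76 to 5.21. With the spread of Hsd17b4 taken alone, without limma's sharing of spread between genes, it was not called (adjusted p = 0.071). The transcripts specific to sex did not match the label in 1 array: control 1 had Xist at 6.80 and Eif2s3y at 8.14, against 10.82 or more and 2.99 or less in the other control arrays. Microglial markers were high in all arrays, with a mean over the 9 measured markers of 11.74 to 11.89 in controls and 11.07 to 11.42 in knockouts. Of these 9 markers 8 were called lower in knockouts, and Fcrls (-0.44) was not called. Marker counts here and below are of genes with a limma adjusted p under 0.05. By that threshold 5.38% of all genes were called higher and 4.17% lower. Among other cell types, 2 of 7 astrocyte markers (Gfap by 1.28 and Aldoc by 0.76), 1 of 6 oligodendrocyte markers (Mbp by 0.59), 1 of 6 endothelial markers (Flt1 by 1.99, with Pecam1 lower) and 2 of 8 border macrophage markers (Ms4a7 and Colec12, with 4 lower) were higher. None of 10 neutrophil, 6 lymphocyte or 7 neuronal markers was called, and of 4 monocyte markers 1 was lower. The mean of the astrocyte list was 6.03 to 6.13 in controls and 6.18 to 6.52 in knockouts, and that of the border macrophage list 6.30 to 6.85 and 5.86 to 6.48. The oligodendrocyte list stood at 6.39 to 6.54 and 6.50 to 6.60, the endothelial list at 5.52 to 5.77 and 5.56 to 5.87, and the neutrophil list at 7.16 to 9.63 and 8.00 to 8.87. No zero exists on this scale, so a marker at background cannot be separated from a low one, and the part of these cells in the results below was not tested.

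Of the 10 genes, 4 were higher in knockout microglia, 0 were lower and 6 did not pass the test (limma, Benjamini-Hochberg adjusted over all 19938 genes, threshold 0.05). Over all genes 5.38% were called higher and 4.17% lower, 9.55% in either direction. The 10 genes were brighter than most, with means at the 95.1 to 99.97 percentile of all genes. The shares over all genes given here are thus not of genes of like brightness. With genes below the median brightness left out, 1109 genes were called higher and 929 lower, against 1073 and 832 with all genes kept. The genes called were the cystatin Cst7 and the cysteine cathepsins Ctsl, Ctsb and Ctsz. The 10 changes had a median of 0.23 on the log2 scale, against a median change of -0.02 over all genes, and ran from -0.22 to 3.04. For 9 of the 10 genes the control and knockout values were fully apart, 6 with the knockout above and 3 below, while 14.0% of all genes had groups that did not overlap, 7.09% with the knockout above and 6.92% below. The 10 genes were chosen with earlier results of these data known, so these counts are a description and no independent support. Because the arrays hold a population of cells, fewer cells of a type and less RNA per cell cannot be told apart. The nearest genes on either side of the threshold were Ctsb (adjusted p = 0.00188) and Ctsh (adjusted p = 0.0704).

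**Figure D1:**
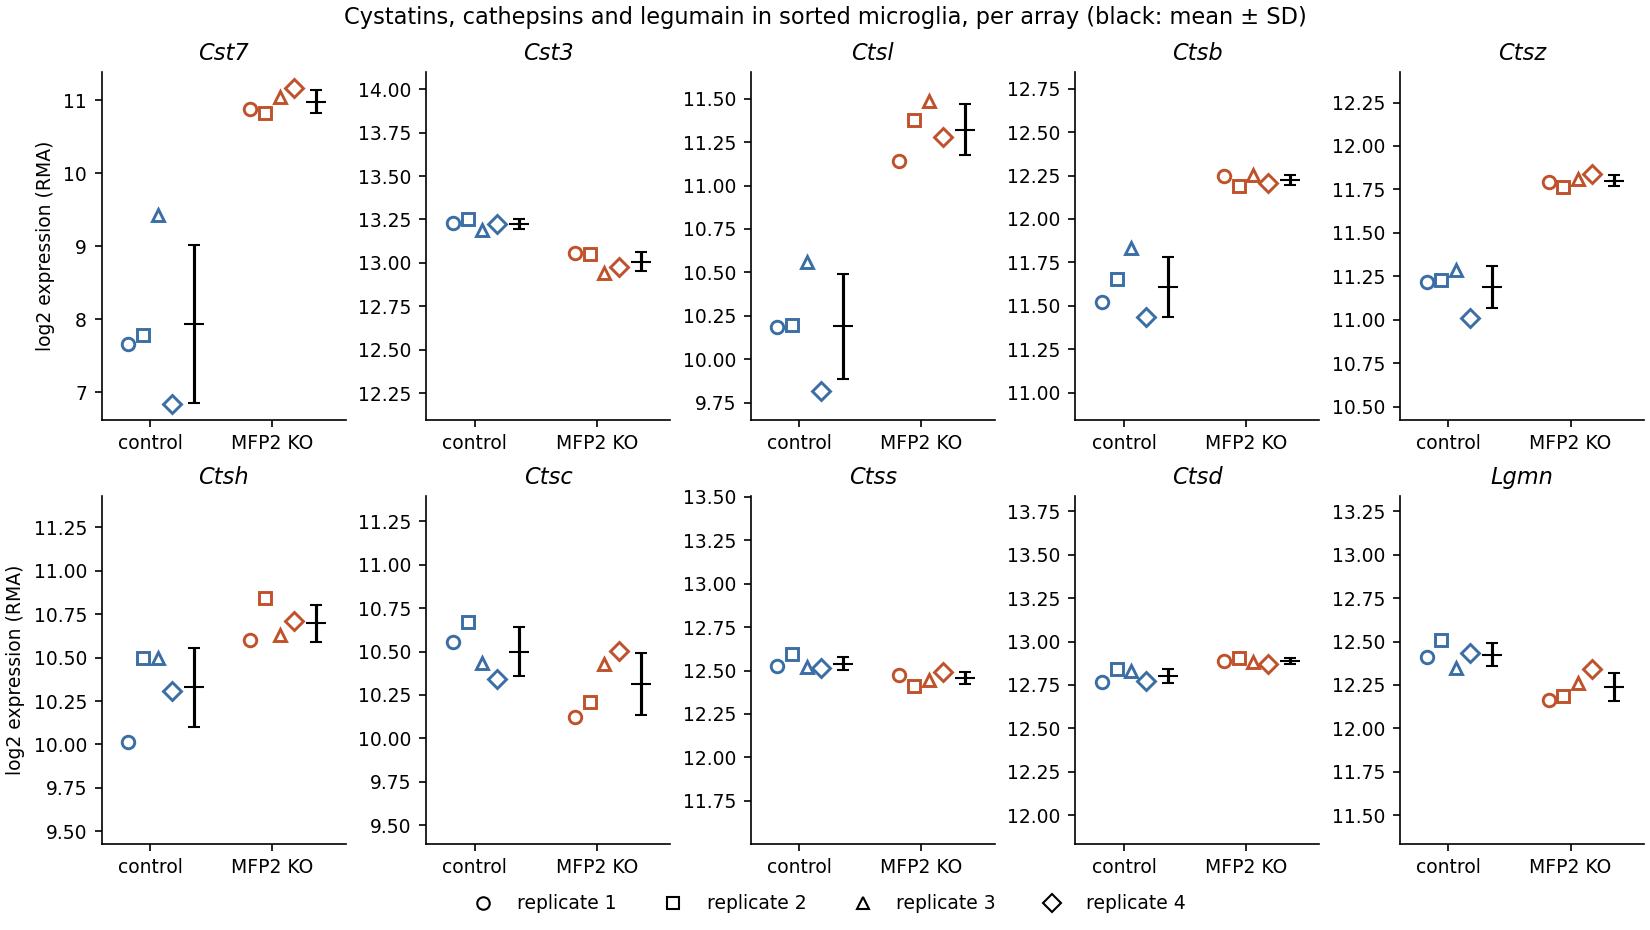
Log2 expression (RMA, vertical axes) of the 10 genes in each control (blue) and MFP2 knockout (orange) array, with the replicate number as the symbol and the group mean ± SD in black. The panels share 1 span of the axis except that of Cst7, whose control arrays run from 6.84 to 9.42 and whose knockout arrays run from 10.82 to 11.17.

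The inhibitor Cst7, which encodes cystatin F, an endolysosomal cystatin that restrains cathepsin C and other cysteine cathepsins, had the fifth highest change of all genes. Its arrays read 7.66, 7.79, 9.42 and 6.84 over control arrays 1 to 4, and 10.88, 10.82, 11.04 and 11.17 over knockout arrays 1 to 4. Every knockout array was above every control array, and the smallest gap between the groups was 1.39. The mean rose from 7.93 ± 1.08 (SD, n = 4) to 10.98 ± 0.16, a log2 change of 3.04 ± 0.39 (SE), which is 8.25-fold (adjusted p = 0.000594 by limma). That SE is limma's, which shares spread between genes. With the spread of Cst7 taken alone, the SE was 0.55 and the adjusted p of the unmoderated test 0.0479. With limma's trended robust prior the adjusted p was 0.0155. Control 3 was the control array closest to the knockouts and control 4 the farthest, and the change was 3.54 without the former and 2.68 without the latter.

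The inhibitor Cst3 encodes cystatin C, a secreted cystatin found throughout the brain and its fluid. It did not pass the test and its change was of opposite sign to that of Cst7. Its arrays read 13.23, 13.25, 13.19 and 13.23 over control arrays 1 to 4, and 13.05, 13.05, 12.94 and 12.98 over knockout arrays 1 to 4. All knockout arrays were below all control arrays, by at least 0.13, near the upper end of the scale of the arrays. The change was -0.22 ± 0.08 (SE, limma adjusted p = 0.116), with a 95% interval from -0.39 to -0.05. With the spread of each gene taken alone, without limma's sharing of spread between genes, the SE was 0.03 and the adjusted p was 0.0334. Cst3 was also called lower over all probe sets by quantile normalization (-0.30, adjusted p = 0.0174) and by cyclic loess (-0.69, adjusted p = 0.00187).

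The cystatins were also set against each other within arrays. This pair and the 3 others below were chosen with earlier results of these data known, so their permutation p-values describe how far the arrays separate and are no independent support. The log2 value of Cst7 minus that of Cst3 was -5.57, -5.46, -3.76 and -6.38 over control arrays 1 to 4, and -2.17, -2.23, -1.91 and -1.81 over knockout arrays 1 to 4. All knockout arrays lay above all control arrays, and the mean difference between the groups was 3.26 (exact two-sided permutation test over 70 splits, p = 0.0286, adjusted p = 0.0381 over 4 such contrasts, n = 4 and 4). That p is the smallest this design can give. Cst7 minus Ctsc sets the inhibitor against a protease it is known to block. Its mean was -2.57 ± 1.08 (SD, n = 4) in controls and 0.66 ± 0.07 in knockouts, a difference of 3.23 (exact permutation adjusted p = 0.0381). The 4 knockout arrays ran from 0.61 to 0.76 on this measure and the control arrays from -3.50 to -1.01. Such differences show unequal change and not the relative amount of the RNAs, since probe sets differ in brightness.

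**Figure D2:**
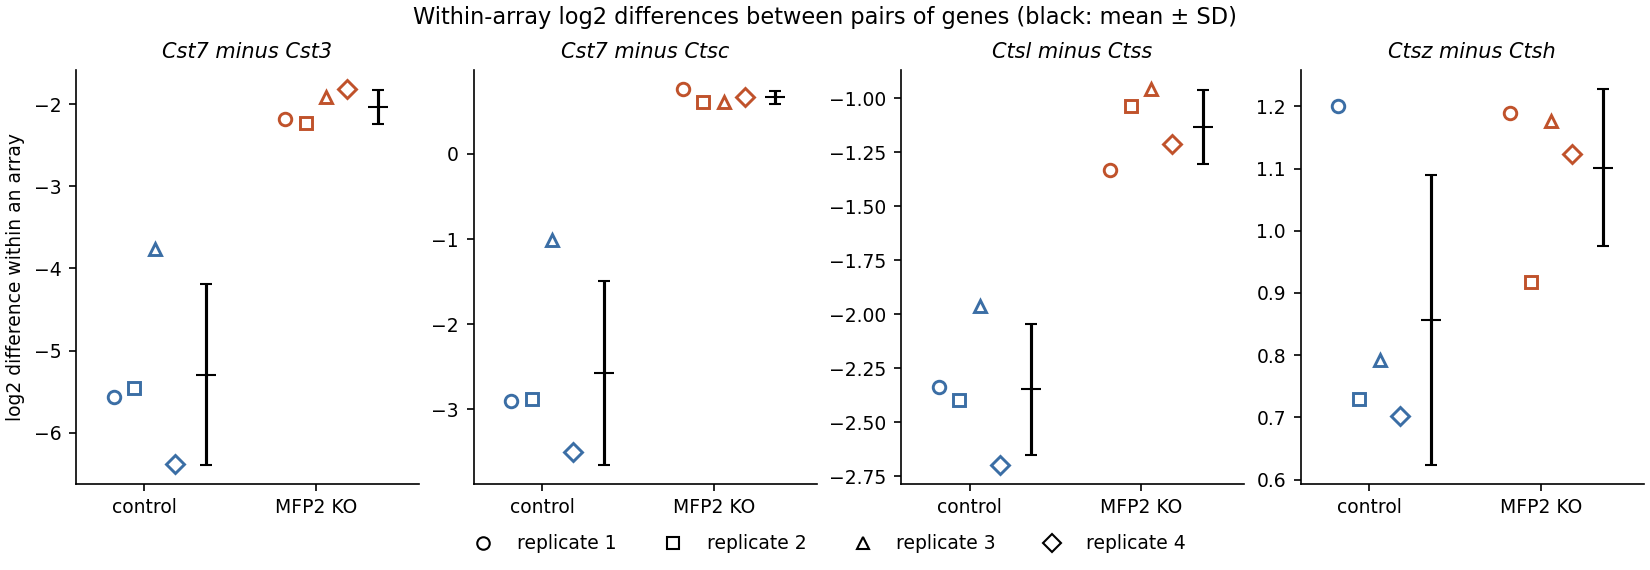
Log2 difference between the genes of a pair within each array (vertical axes, each on its own scale), for 4 control (blue) and 4 MFP2 knockout (orange) arrays, with the replicate number as the symbol and mean ± SD in black. The groups are apart for Cst7 minus Cst3, Cst7 minus Ctsc and Ctsl minus Ctss and overlap for Ctsz minus Ctsh.

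Among the cysteine endopeptidases, Ctsl was called higher and Ctss was not called. Cathepsin L is a broad lysosomal endopeptidase. Ctsl had log2 values of 10.18, 10.20, 10.56 and 9.82 over control arrays 1 to 4, and 11.14, 11.38, 11.49 and 11.28 over knockout arrays 1 to 4. The groups were apart by 0.58, and the mean rose by 1.13 ± 0.14 (SE) or 2.19-fold (limma adjusted p = 0.000512).

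Ctss encodes cathepsin S, which cuts the invariant chain during antigen presentation and stays active at neutral pH. Its values were 12.52, 12.60, 12.52 and 12.52 over control arrays 1 to 4, and 12.47, 12.41, 12.44 and 12.49 over knockout arrays 1 to 4. The knockout arrays were all lower, but by as little as 0.02, and the change of -0.08 ± 0.08 (SE) did not pass the test (limma adjusted p = 0.629, 95% interval -0.25 to 0.08). Ctss was called lower over all probe sets by quantile normalization (-0.30, adjusted p = 0.0271) and by cyclic loess (-0.48, adjusted p = 0.00416). Ctsl minus Ctss, a pair chosen in the same way, was higher in knockouts by 1.21 (exact permutation p = 0.0286, adjusted p = 0.0381 over the 4 contrasts, n = 4 and 4), from a mean of -2.35 ± 0.30 (SD) to -1.13 ± 0.17.

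Ctsb and Ctsz rose by nearly the same amount. Cathepsin B is an endopeptidase that also removes dipeptides from the carboxyl end, and cathepsin Z, also called cathepsin X, is a carboxypeptidase. Ctsb was at 11.52, 11.65, 11.83 and 11.43 over control arrays 1 to 4, and 12.25, 12.19, 12.25 and 12.21 over knockout arrays 1 to 4. Its groups were apart by 0.36, and the change was 0.61 ± 0.10 (SE), or 1.53-fold (limma adjusted p = 0.00188). The SD was 0.17 in controls and 0.03 in knockouts.

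Ctsz was at 11.22, 11.23, 11.29 and 11.01 over control arrays 1 to 4, and 11.79, 11.76, 11.81 and 11.84 over knockout arrays 1 to 4. The groups were apart by 0.47 and the change was 0.61 ± 0.09 (SE), also 1.53-fold (limma adjusted p = 0.000973). Both calls depended on the scaling: after quantile normalization over all 28874 probe sets the change was 0.16 for Ctsb (adjusted p = 0.298) and 0.15 for Ctsz (adjusted p = 0.331), and after cyclic loess over all probe sets Ctsb was at 0.29 (adjusted p = 0.0505). Ctsz stayed called after cyclic loess over all probe sets (0.33, adjusted p = 0.017). Over the 19938 named genes alone, quantile normalization gave 0.42 for Ctsb (adjusted p = 0.0118) and 0.50 for Ctsz (adjusted p = 0.00282). Cyclic loess over the named genes gave 0.66 for Ctsb (adjusted p = 0.00168) and 0.65 for Ctsz (adjusted p = 0.00078).

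The exopeptidases Ctsh and Ctsc did not pass the test. Ctsh encodes cathepsin H, an aminopeptidase. It was at 10.01, 10.50, 10.50 and 10.31 over control arrays 1 to 4, and 10.60, 10.84, 10.63 and 10.71 over knockout arrays 1 to 4. Knockout arrays were above control arrays by at least 0.11, with control 1 the lowest, and the change was 0.37 ± 0.12 (SE, limma adjusted p = 0.0704, 95% interval 0.12 to 0.62). Ctsh passed when dim genes were left out (adjusted p = 0.0464) and with array weights (adjusted p = 0.0424). Ctsz minus Ctsh did not pass (difference 0.25, exact permutation p = 0.143, n = 4 and 4), and after quantile normalization over all probe sets it was -0.11. Ctsc encodes cathepsin C, a dipeptidyl peptidase that activates serine proteases of leukocyte granules. It was at 10.56, 10.67, 10.43 and 10.34 over control arrays 1 to 4, and 10.12, 10.21, 10.43 and 10.50 over knockout arrays 1 to 4. Ctsc was the only gene of the 10 whose groups overlapped, and its change was -0.18 ± 0.11 (SE, limma adjusted p = 0.390, 95% interval -0.42 to 0.06). By cyclic loess over all probe sets Ctsc was called lower, at -0.36 (adjusted p = 0.0227).

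Ctsd and Lgmn showed small differences that did not pass the test. Cathepsin D is the main lysosomal aspartic protease and is not a target of cystatins. Ctsd was at 12.76, 12.84, 12.83 and 12.77 over control arrays 1 to 4, and 12.89, 12.91, 12.88 and 12.87 over knockout arrays 1 to 4. The groups were apart by 0.03, with a change of 0.08 ± 0.08 (SE, limma adjusted p = 0.619, 95% interval -0.08 to 0.25), and cyclic loess over all probe sets turned its sign, to -0.36 (adjusted p = 0.0217). Lgmn was at 12.41, 12.51, 12.35 and 12.43 over control arrays 1 to 4, and 12.16, 12.18, 12.26 and 12.34 over knockout arrays 1 to 4. The groups were apart by only 0.01, with knockout 4 nearly at the level of control 3. The change of -0.19 ± 0.08 (SE) had a limma adjusted p of 0.219 and a 95% interval from -0.37 to -0.01. Lgmn was called lower after quantile normalization over all probe sets (-0.49, adjusted p = 0.00170) or over the named genes (-0.31, adjusted p = 0.0156) and after cyclic loess over all probe sets (-0.56, adjusted p = 0.00176).

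**Figure D3:**
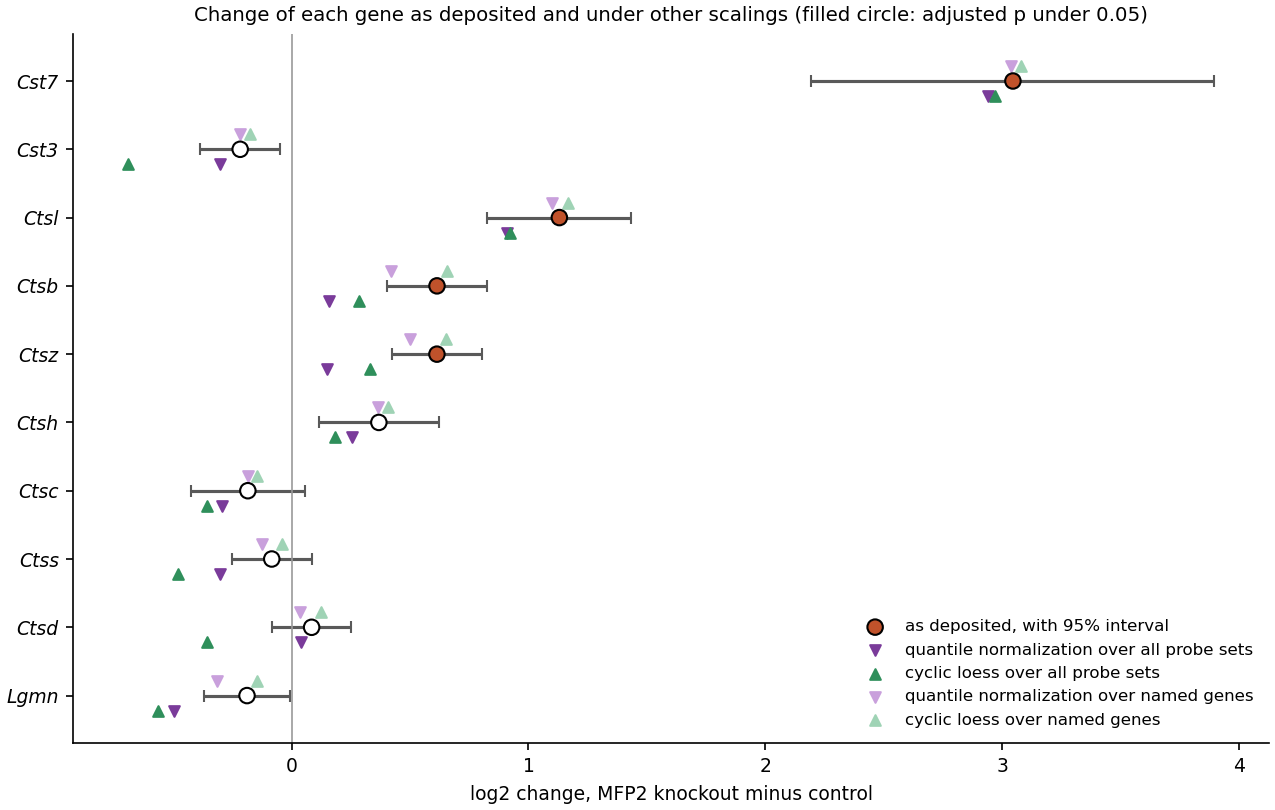
Log2 change of each gene, MFP2 knockout minus control (horizontal axis), as deposited with its 95% interval (circles, filled where the adjusted p was under 0.05) and after 4 other scalings (triangles). Cst7 and Ctsl stay well above 0 under each scaling, and the scalings over all probe sets (dark triangles) lie to the left of the deposited value for all 10 genes.

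Counts of called genes differed between scalings over all probe sets and over the named genes. Between 11 and 13 on the scale lay 648 probe sets. Of these, 357 had a symbol of the ribosomal protein type (Rpl or Rps and a number), alone or among several. The 178 that stand for a gene in this comparison had a median log2 change of 0.05. The other 470, of which 319 had such a symbol, had a median change of 0.60. Scalings over all probe sets gave 2 higher and 3 lower genes of the 10 by quantile normalization and 3 higher and 5 lower by cyclic loess. Over the named genes, the same methods gave 4 higher with 1 lower, and 4 higher with 0 lower. The 1 lower gene was Lgmn. The median change of all genes was between -0.02 and 0.00 under each of these scalings. Cst3, above this range, and Ctsc and Ctsh, below it, also moved by cyclic loess over all probe sets. The range was chosen after the values were seen, and the part of these probe sets in the differences between scalings was not tested.

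The 4 genes called higher ordered the control arrays alike. Cst7, Ctsl, Ctsb and Ctsz were each lowest in control 4, next in control 1, then in control 2 and highest in control 3. This order was found for 622 of all 19938 genes (3.12%) and for 174 of the 1073 genes called higher (16.2%). None of the other 6 genes had it: Cst3 and Lgmn were lowest in control 3, Ctsc and Ctss were lowest in control 4 and highest in control 2, and Ctsh and Ctsd were lowest in control 1. The order was noticed in the values and then counted. In the knockout group Cst7 and Ctsz shared an order, with knockout 2 lowest and knockout 4 highest, and Ctsl and Ctsb did not.

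Nearness to Cst7 was taken as the root mean square difference of log2 values over the 8 arrays, each gene set to its own control mean. Predicted genes, clones, noncoding RNAs, pseudogenes and symbols that begin like those of antigen receptor segments were left out. The 5 nearest of the other genes were Cox6a2, a subunit of cytochrome c oxidase (0.25), the glycoprotein Gpnmb (0.30), the receptor tyrosine kinase Axl (0.42), the copper carrier ceruloplasmin, Cp (0.43), and the fatty acid binding protein Fabp5 (0.43). Like Cst7, all 5 stood highest among controls in control 3, by 0.98 to 1.54 above their control mean, and lowest in control 4. Their knockout arrays stood 2.12 to 3.47 above the control mean. These genes were chosen for this likeness, and their values are a description.

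**Figure D4:**
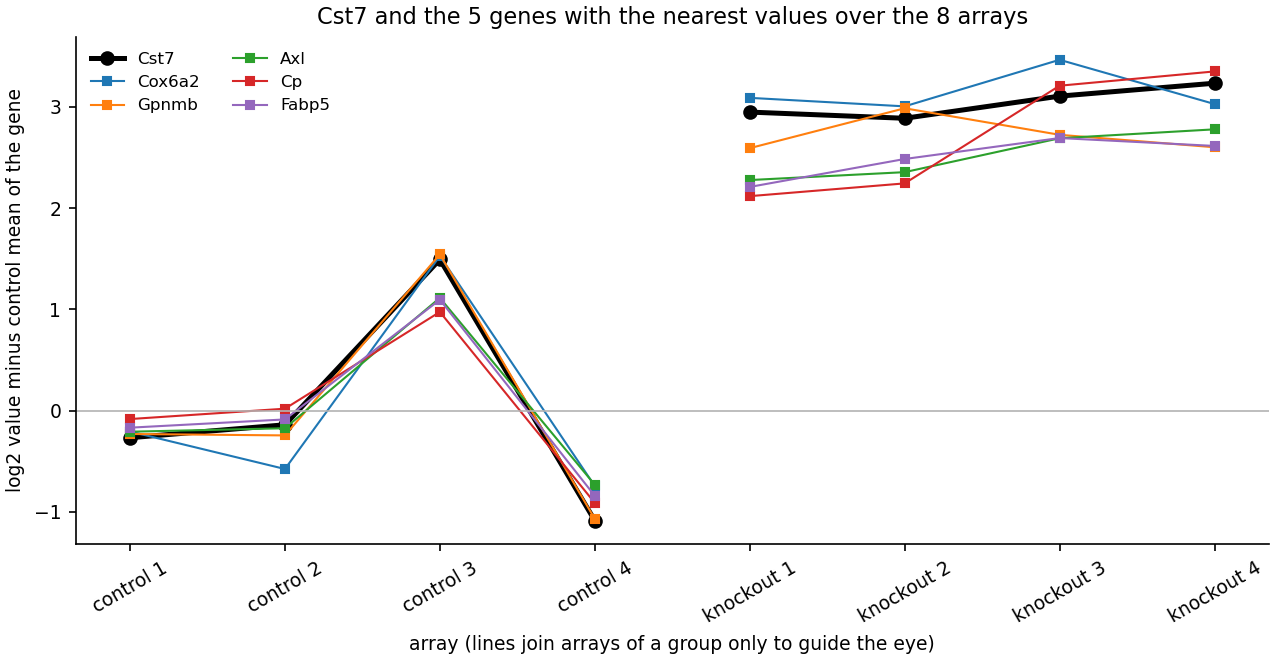
Log2 value minus the control mean of the gene (vertical axis) in each of the 8 arrays (horizontal axis) for Cst7 (black) and the 5 genes nearest to it. In every one of them control 3 is the highest control array and control 4 the lowest, and all knockout arrays lie 2.12 or more above the control mean.

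Genes around Cst7, Ctsl and Ctss on their chromosomes were listed by order in the RefSeq table, 3 measured genes on each side. Next to Cst7, Apmap, a membrane protein of adipocytes, was higher by 0.67 ± 0.12 (SE, limma adjusted p = 0.00435) and Acss1, a mitochondrial acetyl-CoA synthetase, was lower by 0.50 ± 0.12 (limma adjusted p = 0.0217). The call of Acss1 was lost when control 1, control 2, knockout 3 or knockout 4 was left out, at adjusted p from 0.0549 to 0.0751. With the unmoderated spread neither was called (adjusted p = 0.0645 for Apmap and 0.120 for Acss1). The other 4 neighbours of Cst7, all 6 of Ctsl and all 6 of Ctss did not pass the test. The neighbour of Ctss, Ctsk, which encodes the bone-resorbing cathepsin K, was at 5.66 ± 0.15 (SD, n = 4) in controls and 5.52 ± 0.21 in knockouts.

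Beyond the 10 genes, 9 lists of the same protease system held 64 measured genes, of which 11 were higher and 0 lower, with a median change of 0.02. With the unmoderated spread of each gene 3 of the 11, Cstb, Cpq and Gnptab, were called. All 9 were described by counts, beside 5.38% of all genes called higher. The lists were also chosen with earlier results of these data known. The other cathepsins had 0 of 7 called. Ctsa, a lysosomal carboxypeptidase, had a change of 0.26 (limma adjusted p = 0.101), with a sign that turned to -0.18 by quantile normalization and -0.07 by cyclic loess over all probe sets. By cyclic loess over the named genes Ctsa was called higher, at 0.30 (adjusted p = 0.0356). Ctse, an endosomal aspartic protease, ran from 6.10 in control 4 to 8.98 in control 3, and read 10.68, 10.78, 8.42 and 8.34 over knockout arrays 1 to 4. The groups of Ctse overlapped, with knockout 1 and knockout 2 above the other arrays, and its change of 1.92 ± 0.67 (SE) did not pass (limma adjusted p = 0.104). With the replicate number as a block it passed (adjusted p = 0.0476). None of the 7 placental cathepsins was called, the lowest p being those of Ctsr (-0.27, adjusted p = 0.103) and Ctsq (-0.18, adjusted p = 0.417).

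A further inhibitor, Cstb, rose. Cstb encodes stefin B, a cytosolic inhibitor of papain-type cathepsins, and was the only one of 10 other cystatins and stefins called. It was at 7.62, 7.43, 8.03 and 7.29 over control arrays 1 to 4, and 8.77, 8.86, 9.38 and 9.31 over knockout arrays 1 to 4. The groups were clearly apart, and the change was 1.49 ± 0.17 (SE) or 2.80-fold (limma adjusted p = 0.000433). Of 6 other protein inhibitors 3 were higher: Ctla2b (0.81) and Ctla2a (0.84), which resemble the propeptide of cathepsins, and the serpin Serpinb6b (0.64). All 3 lay below the median brightness of all genes and were left out with dim genes, and each has a close relative in the genome with which its probes may share signal. Ctla2a was not called without knockout 4 (adjusted p = 0.0501), and Serpinb6b was not called without control 1 (adjusted p = 0.0606) or control 2 (adjusted p = 0.0651).

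Peptidases and sorting factors of the lysosome also had called members. Of 6 other lysosomal peptidases 3 were higher: the carboxypeptidase Cpq by 1.46 ± 0.17 (SE, limma adjusted p = 0.000433), the dipeptidyl peptidase Dpp7 by 0.97 ± 0.18 and the serine carboxypeptidase Scpep1 by 0.95 ± 0.15. Among the other 3, Tpp1, which removes tripeptides, had a change of 0.15 ± 0.10 (limma adjusted p = 0.453). Of 10 genes that sort enzymes to the lysosome, 3 were higher and 0 lower. Gnptab, the catalytic subunit of the enzyme that starts the mannose 6-phosphate tag, rose by 0.94 ± 0.10 (SE, limma adjusted p = 0.000311), its partner Gnptg by 0.55 ± 0.12 and the tag's receptor Igf2r by 0.73 ± 0.15. Gnptg was not called without control 1 (adjusted p = 0.0505). Igf2r lay below the median brightness and was left out with dim genes, where Nagpa, which uncovers the tag, was called higher (0.36, adjusted p = 0.0369). Nagpa was also called higher by quantile normalization and cyclic loess, over all probe sets or the named genes, and without knockout 1. Sort1, of the same list, was called lower by quantile normalization (-0.39, adjusted p = 0.0353) and cyclic loess (-0.42, adjusted p = 0.0187) over all probe sets. It was also called lower by quantile normalization over the named genes and without control 3.

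The regulators of lysosomal genes did not pass the test. Of 7 genes in the MiT/TFE list, 0 were called. Tfeb was at 7.52 in controls and 7.44 in knockouts, Tfe3 at 8.54 and 8.36 and Mitf at 7.32 and 7.64. The lowest p were those of the repressor Zkscan3 (-0.40, limma adjusted p = 0.0964) and the lysosomal calcium channel Mcoln1 (0.33, adjusted p = 0.132). Zkscan3 was called lower with the replicate number as a block (adjusted p = 0.0434) and without knockout 1 (adjusted p = 0.0254), and Mitf was called higher with the mean of the probe sets of a gene (0.35, adjusted p = 0.0175).

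Partners and substrates of the cathepsins were mostly not called. Of 6 genes for class II presentation, 1 was higher: Ifi30, a lysosomal thiol reductase, by 1.05 ± 0.24 (SE, limma adjusted p = 0.0144), and that call was lost without control 2 (adjusted p = 0.0611). Cd74, the invariant chain that cathepsin S cuts, was at 9.83 in controls and 10.30 in knockouts (adjusted p = 0.467), and was called higher without knockout 1 (0.84, adjusted p = 0.0275). Of 6 serine proteases that cathepsin C activates, 0 were called, with Gzma at -0.41 (adjusted p = 0.0661) and Gzmb at -0.15 (adjusted p = 0.403) having the lowest p. Gzma was called lower without control 1 (adjusted p = 0.0482).

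**Figure D5:**
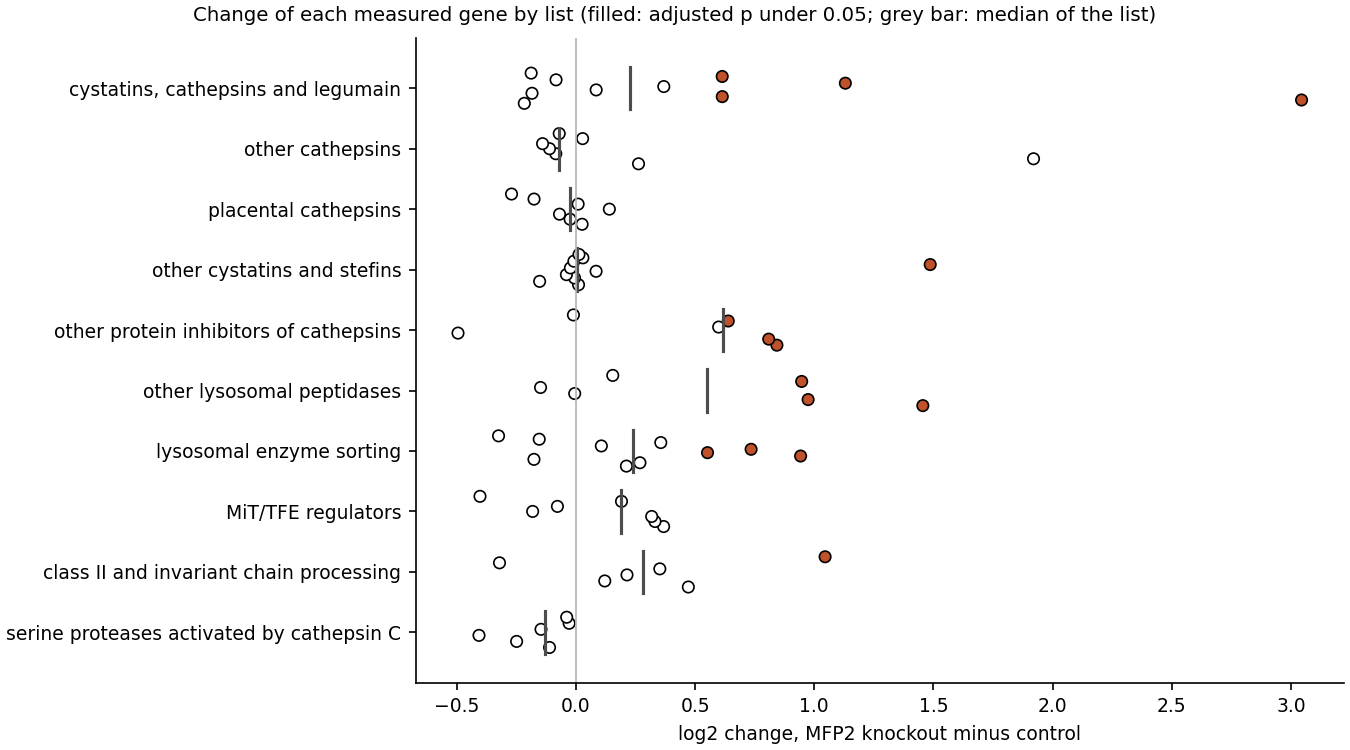
Log2 change, MFP2 knockout minus control (horizontal axis), of each measured gene of the 10-gene set and of the 9 other lists (rows), filled where the adjusted p was under 0.05, with a grey bar at the median of each list. Filled points lie to the right of 0 in all 6 rows that hold any, and no gene in these lists was called lower in the values as deposited.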

How the data were processed

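Microglial RNA was measured with 1 Affymetrix whole-transcript array per sample, 4 control and 4 MFP2 knockout, from 5.775 ng of RNA amplified with the NuGEN Pico system, per the labels' protocols. The authors deposited 1 log2 value per probe set and array, and the submitters' processing notes name RMA, with no version. Base 2 was read from their range. RMA is meant to equalise arrays and so can hide a change common to all genes. The deposited arrays were not identical in distribution: their medians over all probe sets ran from 6.03 (control 2) to 6.15 (control 3). Quantile normalization of these values changed some calls, as given above. Fold changes of dim genes and of genes near the top of the scale may be understated.

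The table held 28874 probe sets, of which 21789 had 1 gene symbol by the platform annotation, 1621 had several and 5464 had none, and 0 columns lacked a sample. A gene was represented by its probe set with the highest mean over 8 arrays, which left 19938 genes. Symbols were checked against RefSeq (GRCm38.p6), and 0 changed. Knockout and control arrays were compared in R 4.3.3 by the two-sided moderated test of limma 3.58.1, without covariate or filter and with Benjamini-Hochberg adjustment over all genes. The SE and 95% interval of a change are limma's, made with spread shared between genes. From the spread of each gene alone the SE was larger for Cst7 (0.55) and smaller for Cst3 (0.03), Ctss (0.03) and Ctsd (0.02). A gene is said to rise or fall when its adjusted p was under 0.05. Within-array differences of 4 gene pairs were compared by exact permutation. The method was tested on simulated data.

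The 10 genes, the lists and the pairs were chosen with earlier results of these data known. Genes were named by this rule: the 10 genes and Hsd17b4; in each other list, the called members (at most 4) or else the 2 of lowest p; the 5 genes nearest to Cst7; neighbours of Cst7, Ctsl and Ctss; and sex-check genes. Others were named after their values were seen (Tfeb, Tfe3, Mitf, Cd74, Tpp1, Nagpa, Sort1 and cell type markers). Of 154 list entries 138 were measured, and the others are not analysed here. Alternative settings left out genes below the median brightness, rescaled the arrays (quantile, median, cyclic loess), averaged or tested all probe sets, used a trended robust prior or array weights, blocked on the replicate number, left out single arrays or control 3 with knockout 2, or set a stricter threshold or a 1.5-fold minimum. Scalings over the named genes alone and an unmoderated spread were added after the data were seen. The labels and files give no scan or processing batch.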

Additional observations from a re-analysis of the deposited data

Results flagged for a closer look

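Ctss in control 2 was at 12.595, above the other control arrays at 12.516 to 12.524, and its gap to the nearest of them was 0.901 of the range of the group. Serpinb6b in knockout 3 was at 5.2983, above the other knockout arrays at 4.5774 to 4.6896, with a gap of 0.844 of the range. Each array stood apart from the other 3 of its group by more than Dixon's 95% critical value for 4 samples. These were 2 of 74 groups checked, and chance gives about 1 in 20.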

How the results depend on the processing

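Across 21 alternatives for the change of each gene, Cst7 was called higher in 21, with changes from 2.68 to 3.60, and Ctsl in 21, from 0.91 to 1.25. The highest adjusted p was 0.0479 for Cst7 and 0.0368 for Ctsl, both in the test with the unmoderated spread. Ctsz was called in 20 and Ctsb in 19. Not all of the 21 could move a change: each of these genes has 1 probe set. Averaging or testing all probe sets therefore left their changes as they were, as did leaving out dim genes. Of the 10 genes, quantile normalization called 2 higher and 3 lower (Cst3, Ctss and Lgmn), cyclic loess 5 lower (those and Ctsc and Ctsd), quantile normalization over the named genes 1 lower (Lgmn), and the unmoderated spread 1 lower (Cst3). The change reversed to -0.36 for Ctsd by cyclic loess, and for Ctsa to -0.18 by quantile normalization and -0.074 by cyclic loess. Ctsz minus Ctsh reversed to -0.11 by quantile normalization. The cause was not tested. Over all genes, 567 were higher and 358 lower at an adjusted p under 0.01, 597 and 313 with at least a 1.5-fold change, and 377 and 271 with the unmoderated spread. Of the 64 genes of the other lists, 7 were higher at the stricter threshold and 3 with the unmoderated spread, and 1 was lower by quantile normalization, by cyclic loess and by quantile normalization over the named genes. The share of called genes that were higher was 56.3% as deposited and 48.6% to 59.5% under the other scalings.

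Leaving out each array in turn kept 4 of the 10 genes higher and 0 lower. Over all genes it gave 753 to 1162 higher and 507 to 960 lower, and in the other lists 9 to 13 higher and 0 to 1 lower. Cst7 minus Cst3 ran from 2.90 to 3.77, Cst7 minus Ctsc from 2.92 to 3.75, Ctsl minus Ctss from 1.10 to 1.34 and Ctsz minus Ctsh from 0.19 to 0.36. The first 3 had an adjusted p of 0.0762 (exact permutation) whenever a knockout array was left out.

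The replicate numbers were not taken to pair the arrays, since same-numbered arrays had correlations of their deviations from the group means of 0.158, -0.0645, 0.00587 and 0.00783. Control 1 and knockout 1 were each other's best match by this measure, and no other same-numbered arrays were. These correlations cannot exclude a pairing. With the replicate block, 4 of the 10 genes were higher and 0 lower, 1029 genes were higher and 826 lower, and 13 genes of the other lists were higher and 1 lower. Within pairs the smallest exact permutation p is 0.125. The precision is limited by 4 arrays a group, and no signal over background is given in the values.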
